A study of Homo sapiens with 12 samples.

Results

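The 10 genes followed here belong to the extrinsic apoptosis pathway around the death receptor FAS. Their RNA was measured in a diffuse large B-cell lymphoma line and its venetoclax-resistant derivative, each treated with decitabine or vehicle. They were taken by name from the 59490 feature names that occur once in the deposited tables: FAS, FADD, CASP8, CASP10, CFLAR, TNFRSF10A, TNFRSF10B and TNFRSF1A, together with AP000879.1 and IMPDH1P10, which lie on the strand opposite FADD and CFLAR. There were 4 groups of 3 libraries. The resistant decitabine group was OCI-LY1R, made by exposing OCI-LY1 to rising venetoclax up to 1 µM, and then kept in 1 µM decitabine for 3 days; the resistant DMSO group was OCI-LY1R with vehicle for 3 days; the parental decitabine group was OCI-LY1 in 1 µM decitabine for 3 days; and the parental DMSO group was OCI-LY1 with vehicle for 3 days. OCI-LY1 is an established human lymphoma line, venetoclax is an inhibitor of the survival protein BCL2, and decitabine is a cytosine analogue that depletes DNA methyltransferases. OCI-LY1R is a single derived line, and the labels do not say whether it is 1 clone or whether replicates came from separate cultures, so p-values measure only the spread between these libraries. Resistant libraries could be matched to their group but not to a numbered sample and are lettered a, b and c.

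FAS is a cell-surface receptor of the tumour necrosis factor receptor family. When its ligand binds, its death domain recruits the adaptor FADD, which in turn gathers the initiator caspases CASP8 and CASP10 into a signalling complex; CFLAR, a caspase-like protein without protease activity, competes for the same places and restrains the caspases. The TRAIL receptors TNFRSF10A and TNFRSF10B use the same adaptor and caspases, whereas the tumour necrosis factor receptor TNFRSF1A reaches them through a second complex. FAS is carried by germinal-centre B cells, the cells this lymphoma resembles.

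The FAS start region is shown because FAS was the member whose level moved, because decitabine lowers methylation of cytosines that precede guanines (CpG), and because the gene ACTA2, smooth-muscle actin, starts there on the other strand. FAS lies at chr10:88990582-89015785 on the plus strand in GRCh38 and ACTA2 at chr10:88935074-88991339 on the minus strand, so 380 of the 4253 annotated exon bases of FAS (8.93%) lie opposite exon bases of ACTA2. RefSeq (GRCh38.p14) gives 3 FAS start windows, each running from 250 bases before a start to 50 after it. The window at chr10:88990548-88990847 holds 18 CpG and the one at chr10:88991181-88991480 holds 22 CpG. The window with 22 CpG shares 193 bases with the ACTA2 start window at chr10:88991288-88991587. Both FAS windows are printed on the plus strand, with each CG in capitals.

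FAS first window: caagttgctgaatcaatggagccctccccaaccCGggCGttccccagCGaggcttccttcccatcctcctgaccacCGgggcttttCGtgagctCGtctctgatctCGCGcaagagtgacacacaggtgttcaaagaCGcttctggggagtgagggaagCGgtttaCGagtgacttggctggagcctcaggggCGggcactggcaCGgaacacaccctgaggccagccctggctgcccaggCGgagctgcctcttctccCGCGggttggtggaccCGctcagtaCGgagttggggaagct

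FAS ACTA2-sharing window: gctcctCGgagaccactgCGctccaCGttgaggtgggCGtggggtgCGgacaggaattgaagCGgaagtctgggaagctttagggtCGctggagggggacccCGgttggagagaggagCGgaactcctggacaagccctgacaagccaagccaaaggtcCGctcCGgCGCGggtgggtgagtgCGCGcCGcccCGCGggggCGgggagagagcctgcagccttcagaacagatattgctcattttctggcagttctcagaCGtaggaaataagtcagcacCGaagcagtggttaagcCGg

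Over 35116 RefSeq start windows of 300 bases the median was 14 CpG. At least 18 CpG were found in 44.5% of windows and at least 22 CpG in 37.7%. The third FAS window, at chr10:88990664-88990963, held 14 CpG. Among other members, the FADD window held 36 CpG, the CFLAR windows 0 to 22, the CASP8 windows 5 or 6 and the TNFRSF1A window 4. High counts were thus not particular to FAS, and a link between CpG number and the listed FAS levels was not tested. A CpG is its own reverse complement, so the count is the same on both strands, and it says nothing of methylation, which was not measured.

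Values are TPM, a level per transcript length that sums to 1000000 in each library; read depth is unknown, so no counting error is given, and a 0 is reported only as listed at 0. Parental decitabine replicate 3 stood apart from the other 11 libraries. It listed 23062 feature names above 0, against 9620 to 13027 in the other 11. ACTB, cytoplasmic actin, stood at 6353 TPM there, whereas the 11 ranged from 8.14 to 20.4 TPM. A list of 12 B-cell marker genes summed to 3841 TPM in it. The same list summed to 132 to 196 TPM in resistant decitabine cells, 70.4 to 140.03 TPM in resistant DMSO cells, 49.1 to 80.6 TPM in parental decitabine replicates 1 and 2 and 60.4 to 153 TPM in parental DMSO cells. A list of 12 T, NK and myeloid marker genes summed to 7.55 TPM in replicate 3 and to at most 5.50 TPM in any of the 11, and 8 of its genes were at 0 in replicate 3. Replicate 3 is therefore given by itself, and the tests leave it out unless it is named.

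Which strand the values of the 11 libraries describe was not tested, so levels listed under FAS are not shown to be FAS RNA. FAS, the receptor, was the only member whose listed level passed the test for decitabine, and it did so in resistant cells. It was listed at 73.3, 95.03 and 63.1 TPM in resistant decitabine cells and at 8.20, 9.54 and 15.2 TPM in resistant DMSO cells. It was listed at 1.81 and 0.88 TPM in parental decitabine replicates 1 and 2, against 8.63, 7.89 and 11.1 TPM in parental DMSO cells. All 3 resistant decitabine libraries lay above every other library, and both of these parental decitabine libraries lay below every other library. The parental decitabine replicate that was set apart listed FAS at 2.98 TPM. That is below all 6 DMSO libraries, but the replicate differed from them across its features, so its FAS level is not read as a decitabine effect.

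**Figure D1:**
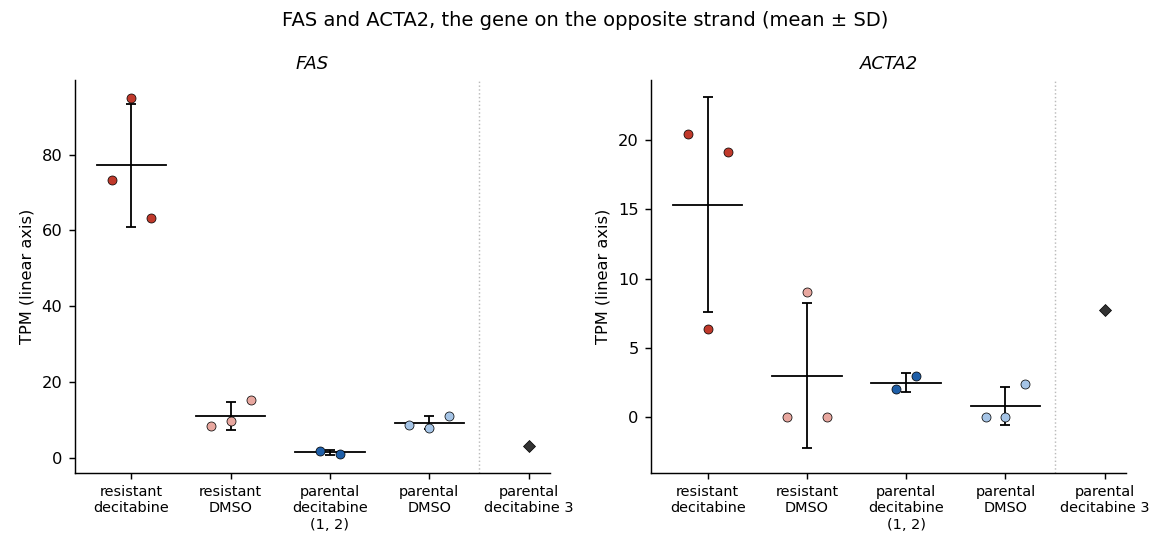
TPM of FAS (left) and of ACTA2 (right) in each library on a linear axis, with points for libraries, lines for group means and bars for SD (n = 3, or 2 for parental decitabine); parental decitabine replicate 3 is the diamond. FAS lies at 63.1 to 95.03 TPM in resistant decitabine cells and at or below 15.2 TPM elsewhere, and ACTA2 reaches 20.4 TPM in resistant decitabine cells and 9.04 TPM in resistant DMSO cells.

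In resistant cells, FAS averaged 77.2 ± 16.3 TPM with decitabine and 10.99 ± 3.73 TPM with DMSO (SD, n = 3 each), a ratio of means of 7.02. The log2 fold change on log2(TPM + 1) was 2.73 (SE 0.28, 95% interval 2.03 to 3.43), with a Benjamini-Hochberg adjusted p of 0.0127 from limma. FAS ranked 54 by p and 245 by size of change among the 8579 features tested. It was the only 1 of the 6 members tested to pass, where 3.59% of all features passed, 2.83% as higher and 0.758% as lower. Its groups did not overlap, as in 28.4% of features. The call was lost without resistant decitabine a, where the log2 fold change was 2.75 and the adjusted p by limma 0.0518. It was near the threshold without resistant decitabine b or c as well (limma adjusted p 0.0484 and 0.0444). Log2 fold changes were 2.56 to 2.97 over the removal of each library in turn. In bulk RNA, a change in how many cells carry the RNA listed as FAS and a change in its amount per cell cannot be told apart.

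More features were listed above 0 with decitabine in both lines. There were 12492 to 13027 in resistant decitabine cells, against 9620 to 9853 in resistant DMSO cells, and 11629 and 11148 in parental decitabine cells, against 10148 to 10347 in parental DMSO cells. Over all features tested, the median log2 fold change was 0.21 in each line. These shifts had the same sign in both lines while the FAS fold changes had opposite signs, and their part in the FAS values was not tested. The B-cell marker sums given above overlapped between decitabine and DMSO within each line.

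In parental cells, FAS averaged 1.35 ± 0.66 TPM with decitabine (SD, n = 2) and 9.20 ± 1.67 TPM with DMSO (SD, n = 3), a ratio of means of 0.146. Its log2 fold change was -2.14 (SE 0.32, 95% interval -2.98 to -1.29), and its limma adjusted p of 0.0626 missed the threshold of 0.05. The unadjusted p of this limma fit was 0.00155. None of the 5 members tested passed, where 1.86% of all features did, 1.38% as higher and 0.48% as lower, and 2 of the 5, FAS and IMPDH1P10, had an unadjusted p under 0.05, as did 18.0% of all features. The same 2 members did not overlap between decitabine and DMSO, as did 39.4% of all features. With replicate 3 included, the FAS log2 fold change was -1.87 and its limma adjusted p 0.594, in a fit that called 0 of 13778 features (262 at an unadjusted p under 0.05).

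The decitabine response of FAS differed between the lines. The response in resistant cells minus that in parental cells was 4.87 on the log2 scale (SE 0.43, 95% interval 3.90 to 5.83), with a limma adjusted p of 0.0019. FAS was sixth by p among the 8505 features tested and ranked 79 by size. It was again the only 1 of 6 members to pass, where 0.364% of all features passed, 0.188% as higher and 0.176% as lower. This call remained under the removal of any library, with adjusted p-values by limma of 0.0025 to 0.0074. With parental decitabine replicate 3 included, the difference was 4.60 and its limma adjusted p 0.167.

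Without decitabine no difference of FAS between the lines passed the test. Under DMSO the mean was 10.99 TPM in resistant cells and 9.20 TPM in parental cells, with ranges that overlap. The log2 fold change was 0.20 with an interval of -0.52 to 0.92 (limma adjusted p 0.741), so the interval leaves room for a change in either direction. Without resistant DMSO replicate c it was -0.04. Under this comparison none of 6 members tested passed, where 2.8% of features did, 1.73% as higher and 1.07% as lower. AP000879.1 and TNFRSF10B had an unadjusted p under 0.05, as did 19.3% of all features. The same 2 did not overlap between the lines, as was so for 28.1% of all features. TNFRSF10B met the filter here only through the resistant group, so its p and its lack of overlap are not read as a result.

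Under decitabine FAS stood 57.4 times higher in resistant than in parental cells by the ratio of means, 77.2 against 1.35 TPM. The log2 fold change was 5.07 (SE 0.30, 95% interval 4.29 to 5.84; limma adjusted p 0.0151). FAS was the only 1 of 6 members tested to pass, where 0.831% of features passed, 0.509% as higher and 0.321% as lower. FAS and TNFRSF10B, 2 of the 6, did not overlap between the lines, as did 32% of all features. The FAS call was lost without any 1 of resistant decitabine a, b or c or parental decitabine 1 or 2, with limma adjusted p-values of 0.0558 to 0.0776 and log2 fold changes of 4.78 to 5.36. With parental decitabine replicate 3 included the log2 fold change was 4.80 and the limma adjusted p 0.44. In the order of group means FAS thus ran from resistant decitabine through resistant DMSO and parental DMSO to parental decitabine, and the 2 middle groups did not differ beyond their spread.

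**Figure D2:**
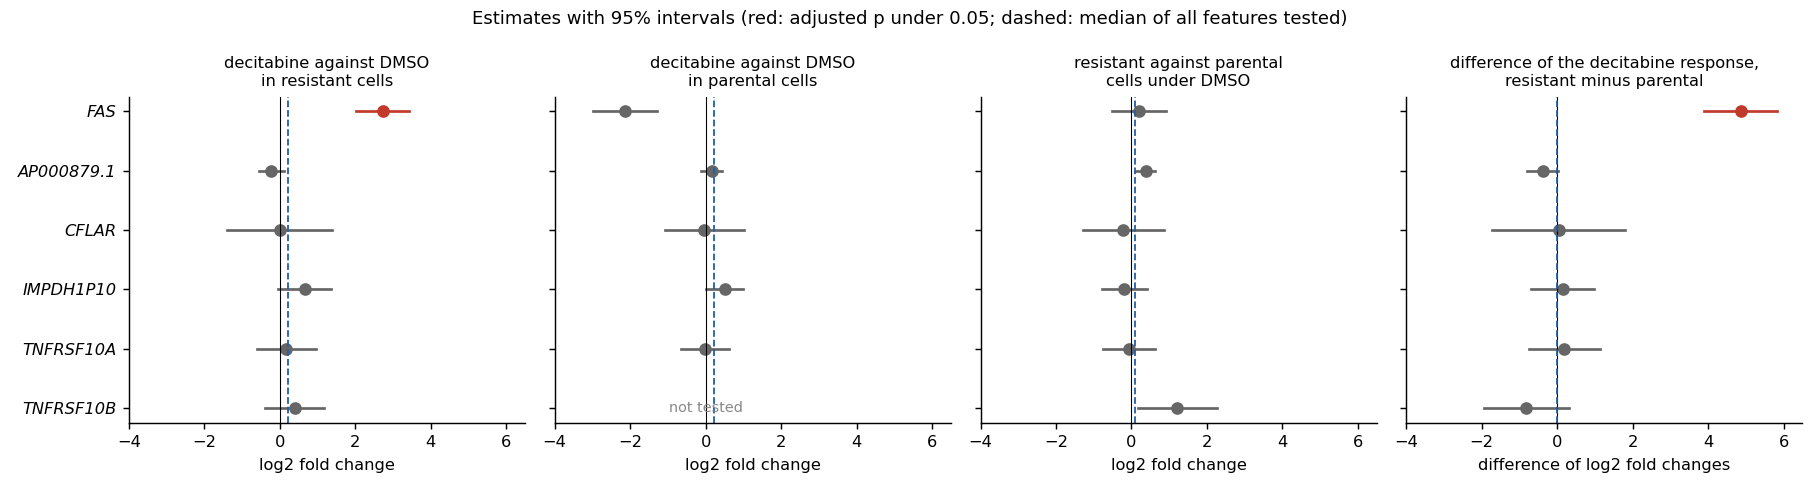
Log2 fold changes on log2(TPM + 1) of the 6 members that passed the filter of a mean of at least 1 TPM, with 95% intervals, in 4 comparisons, parental decitabine replicate 3 left out; red marks a limma adjusted p under 0.05 and the dashed line the median of all features tested. FAS is red at 2.73 in resistant cells and at 4.87 for the difference of responses, and the other members are grey.

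ACTA2, on the strand opposite the FAS start, was listed at 20.4, 6.39 and 19.2 TPM in resistant decitabine cells and at 0, 9.04 and 0 TPM in resistant DMSO cells. It was at 2.02 and 2.99 TPM in parental decitabine replicates 1 and 2 and at 0, 0 and 2.41 TPM in parental DMSO cells, with 7.73 TPM in replicate 3. Its resistant groups overlapped because of 1 decitabine library below 1 DMSO library. The log2 fold change with decitabine in resistant cells was 2.77 (SE 1.03, limma adjusted p 0.213), and in parental cells it was 1.21 (SE 0.70, limma adjusted p 0.42). With a pseudocount of 0.1 these were 4.93 and 3.13, and neither passed by limma (adjusted p 0.243 and 0.426). ACTA2 met the filter in parental cells only through the decitabine group, at a mean of 2.51 TPM against 0.80 TPM with DMSO. Its parental fold changes are therefore not read as a result. The FAS and ACTA2 values had a Pearson r of 0.54 over the 11 libraries on log2(TPM + 1), libraries that share their 4 groups. Whether reads of one gene were listed under the other was not tested.

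The 5 features whose pattern over the 11 libraries was most like that of FAS, by Pearson r of log2(TPM + 1) among 8504 features, were FBXL14 (0.898), SOX4 (0.896), CEBPB-AS1 (0.894), ABR (0.889) and EP300 (0.882). SOX4, a transcription factor, was listed at 7.03, 9.39 and 5.99 TPM in resistant decitabine cells and 3.22, 4.99 and 3.89 TPM in resistant DMSO cells. It was at 1.83 and 1.14 TPM in parental decitabine replicates 1 and 2 and at 2.01, 2.20 and 1.68 TPM in parental DMSO cells. SOX4 thus had the order of FAS in the resistant line but a smaller range. EP300 was at 6.74, 6.79 and 5.78 TPM in resistant decitabine cells and 1.09, 4.76 and 3.67 TPM in resistant DMSO cells. In parental cells it was at 1.21 and 0.81 TPM with decitabine and 3.60, 3.02 and 3.84 TPM with DMSO. The means of EP300 and FBXL14, the latter at most 2.74 TPM over the 11 libraries, moved in opposite directions in the lines. Both were picked for likeness to FAS in these libraries, so a shared direction follows from the choice and is no support. Neither passed in any comparison where it was tested (EP300 difference of responses, limma adjusted p 0.209). FBXL14 averaged at least 1 TPM only in resistant decitabine cells. Replicate 3 listed EP300 at 69.3 TPM and FBXL14 at 22.3 TPM, above every parental DMSO library. The parental groups of SOX4, CEBPB-AS1 and ABR overlapped. The other members tested had an r with FAS between -0.12 and 0.35.

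FADD, the adaptor, was listed at 0 in all 11 libraries and at 24.6 TPM in parental decitabine replicate 3. The feature opposite it showed the reverse. AP000879.1 was listed at 283, 325 and 254 TPM in resistant decitabine cells, 313, 323 and 370.4 TPM in resistant DMSO cells, 267 and 309 TPM in parental decitabine replicates 1 and 2 and 246, 271 and 257 TPM in parental DMSO cells. It was the highest of the 10 members in each of these 11 libraries and was listed at 0 in replicate 3. FADD lies at chr11:70203163-70207390 on the plus strand and AP000879.1, an antisense transcript, at chr11:70206291-70207390 on the minus strand, so that all 1011 of its exon bases lie opposite FADD exons and cover 54.9% of them.

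AP000879.1 did not pass in any of the 5 comparisons. With decitabine its log2 fold change was -0.22 in resistant cells (95% interval -0.56 to 0.11, limma adjusted p 0.41) and 0.15 in parental cells (95% interval -0.12 to 0.43, limma adjusted p 0.476). Under DMSO it averaged 335 ± 30.7 TPM in resistant cells and 258 ± 12.8 TPM in parental cells (SD, n = 3 each). Those groups did not overlap, and the log2 fold change of 0.37 had a limma adjusted p of 0.141. These decitabine intervals are the narrowest of the 6 members tested in resistant cells and of the 5 tested in parental cells.

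CASP8, the initiator caspase, was listed at 0 in all 6 resistant libraries, at 1.28 and 0 TPM in parental decitabine replicates 1 and 2 and at 0.18, 0 and 0 TPM in parental DMSO cells. Replicate 3 listed it at 35.7 TPM, the highest of the members there. CASP10, its close relative, was listed at 0.18 TPM in resistant decitabine replicate b and at 0 in the other 10 of the 11, with 2.16 TPM in replicate 3. Both caspase genes lie on the plus strand of chromosome 2, CASP10 at chr2:201182881-201229406 and CASP8 at chr2:201233443-201287711. Neither has an exon base opposite another gene, and neither reached the mean of 1 TPM needed for a test.

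CFLAR, the inhibitor of those caspases and their neighbour at chr2:201116104-201176687, was listed in every library. It was at 33.7, 14.3 and 9.73 TPM in resistant decitabine cells, 22.4, 23.6 and 8.89 TPM in resistant DMSO cells, 26.1 and 13.9 TPM in parental decitabine replicates 1 and 2 and 20.0, 14.1 and 26.8 TPM in parental DMSO cells, with 14.5 TPM in replicate 3. The groups overlapped in every comparison, and libraries of 1 group differed by as much as those of different groups. With decitabine the log2 fold change was -0.00 in resistant cells (95% interval -1.39 to 1.39, limma adjusted p 0.9996) and -0.04 in parental cells (95% interval -1.09 to 1.01, limma adjusted p 0.962). These intervals are wide enough to hold a change of either sign larger than 1 on the log2 scale.

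IMPDH1P10, a processed pseudogene at chr2:201137516-201140027 on the minus strand, has 96.5% of its exon bases opposite CFLAR exons. It was listed at 38.8, 41.7 and 26.3 TPM in resistant decitabine cells and 16.9, 29.3 and 21.0 TPM in resistant DMSO cells. It was at 32.3 and 40.2 TPM in parental decitabine replicates 1 and 2 and 28.4, 22.4 and 24.6 TPM in parental DMSO cells, and at 0 in replicate 3. The parental groups did not overlap and the resistant groups did. Its log2 fold change with decitabine was 0.65 in resistant cells (SE 0.28, limma adjusted p 0.275) and 0.51 in parental cells (SE 0.19, limma adjusted p 0.264). As a copy of IMPDH1 sequence it may share reads with other copies, so its values are uncertain. CFLAR-AS1, a further antisense gene there, ranged from 0 to 13.6 TPM over the 11 libraries and was listed at 0 in replicate 3.

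**Figure D3:**
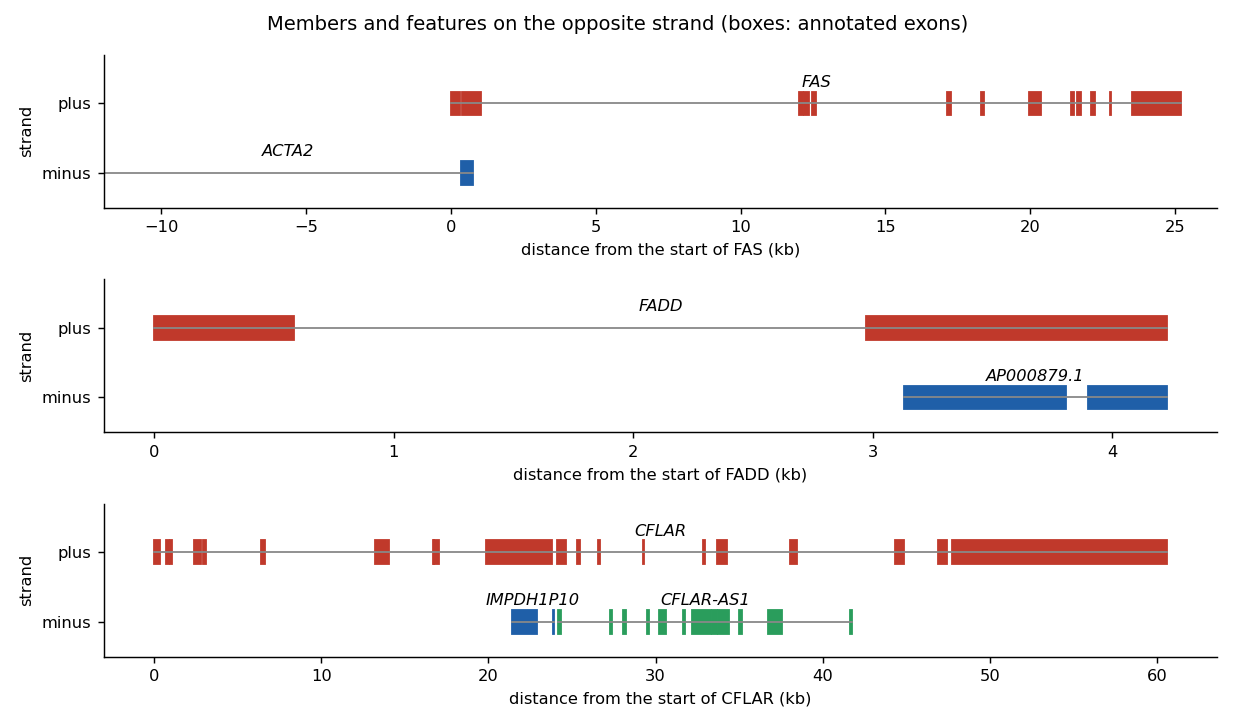
Annotated exons (boxes) of FAS, FADD and CFLAR and of the features on the opposite strand, by distance in kb from the start of each member, plus strand above and minus strand below. AP000879.1 lies wholly opposite FADD, IMPDH1P10 and CFLAR-AS1 lie opposite CFLAR, and ACTA2 meets FAS at its start.

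TNFRSF10A, a TRAIL receptor at chr8:23190452-23225126 on the minus strand, had levels that overlapped between groups in every comparison. It was listed at 12.4, 9.67 and 7.59 TPM in resistant decitabine cells, 9.37, 5.86 and 11.2 TPM in resistant DMSO cells, 10.4 and 7.54 TPM in parental decitabine replicates 1 and 2 and 9.71, 7.97 and 9.35 TPM in parental DMSO cells. In the parental table the identifier beside its name, like those beside TNFRSF10B and TNFRSF1A, belongs to another gene, so the parental values of these 3 members rest on the name. Replicate 3, at 9.72 TPM, lay inside that range, unlike for any other member but CFLAR and FAS. With decitabine the log2 fold change was 0.17 in resistant cells (95% interval -0.62 to 0.96, limma adjusted p 0.798) and -0.02 in parental cells (95% interval -0.65 to 0.61, limma adjusted p 0.971). Of its exon bases 16.6% lie opposite other genes. The ones that reached 1 TPM were TNFRSF10A-AS1, at 6.74 to 23.4 TPM over the 11 libraries and 0 in replicate 3, and AC100861.1, at 25.0 to 62.8 TPM over the 11 and 7.48 TPM in replicate 3. RPL23AP55, a pseudogene within its body, was listed at 2.76 TPM in parental DMSO replicate 2 and at 0 in the other libraries.

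TNFRSF10B, the other TRAIL receptor with a death domain, at chr8:23020133-23069179, was listed at 2.72, 2.53 and 2.90 TPM in resistant decitabine cells and at 1.73, 1.30 and 2.64 TPM in resistant DMSO cells. It was at 1.55 and 2.10 TPM in parental decitabine replicates 1 and 2, at 0, 0.82 and 0 TPM in parental DMSO cells and at 25.7 TPM in replicate 3. Parental DMSO cells lay below all the others. Under DMSO the log2 fold change between resistant and parental cells was 1.22 (SE 0.42), with a limma adjusted p of 0.199. With a pseudocount of 0.1 it was 3.19 (limma adjusted p 0.225). TNFRSF10B entered this fit only through the resistant group, which averaged 1.89 TPM against 0.27 TPM in parental cells. The fit is therefore no support for a difference of TNFRSF10B between the lines. TNFRSF10B was not tested for decitabine in parental cells, where its mean missed the filter. In resistant cells the log2 fold change with decitabine was 0.39 (95% interval -0.40 to 1.17, limma adjusted p 0.556). RHOBTB2, which overlaps 67 of its exon bases on the other strand, was at 22.8 to 71.3 TPM over the 11 libraries and 15.6 TPM in replicate 3.

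TNFRSF1A, the tumour necrosis factor receptor, at chr12:6328757-6342114 on the minus strand, was listed at 0 in all 11 libraries and at 7.82 TPM in replicate 3. It has no exon base opposite another gene.

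**Figure D4:**
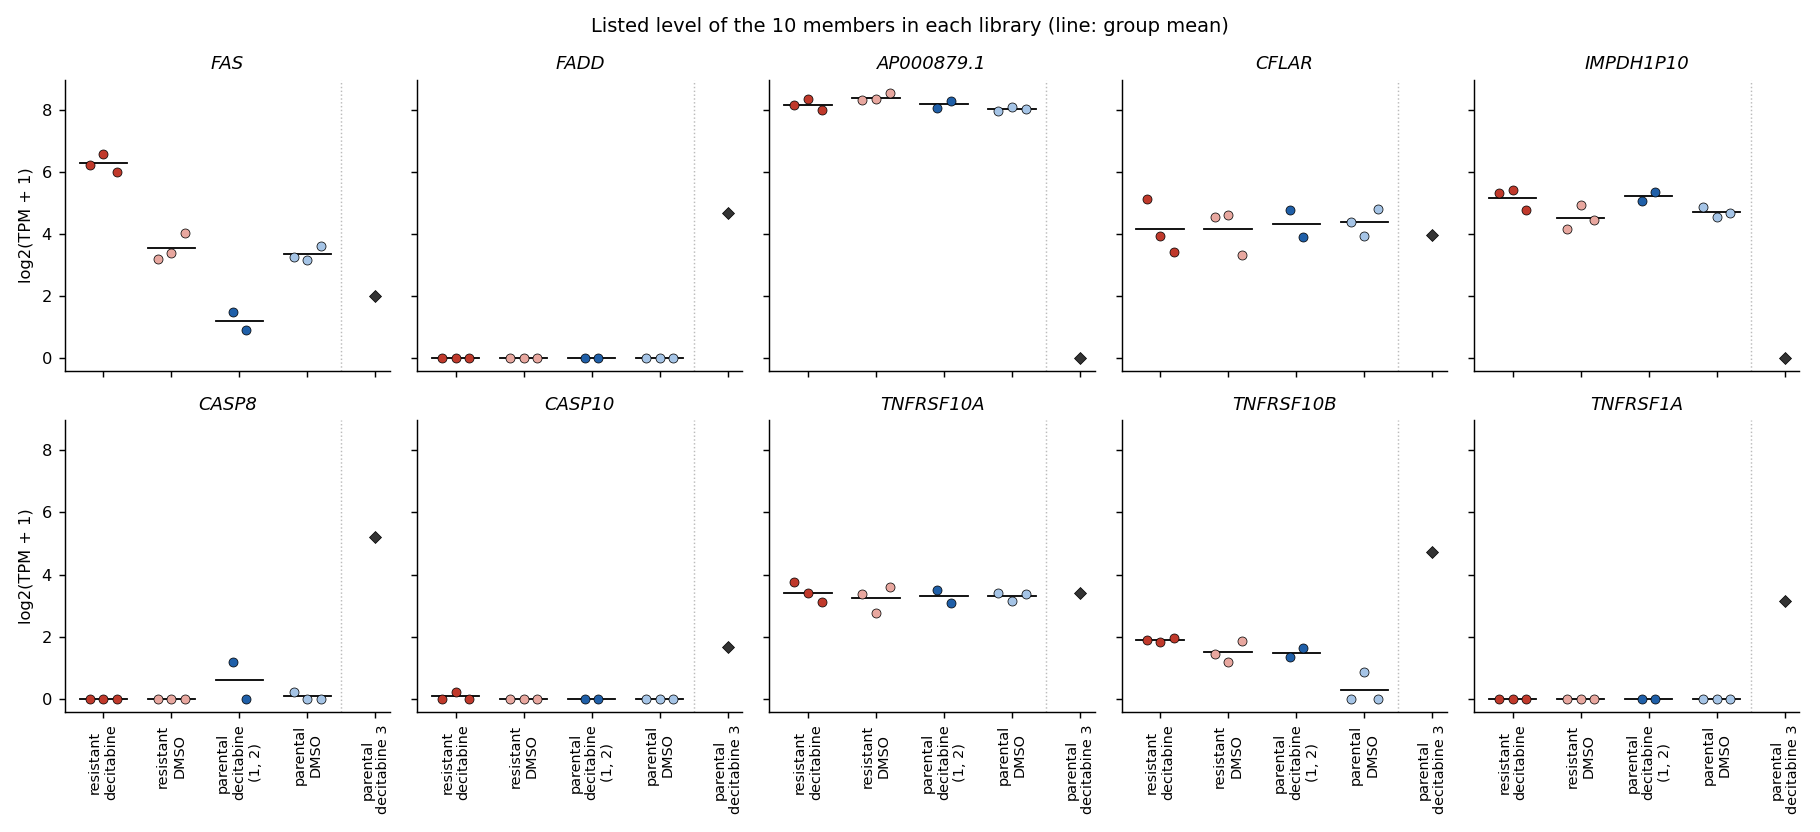
Level of each of the 10 members on log2(TPM + 1) in every library, by group, with lines for group means and parental decitabine replicate 3 as the diamond. FADD, CASP8, CASP10 and TNFRSF1A sit at or near 0 except in replicate 3, AP000879.1 and IMPDH1P10 are at 0 only there, and FAS is high in resistant decitabine cells and low in parental decitabine cells.

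The listed levels of the members in the 11 libraries can be set beside whether they have exon bases opposite another gene. FADD has 54.9% of its exon bases opposite another gene and was listed at 0, and TNFRSF10B has only 67 such bases. FAS, CFLAR, TNFRSF10A and TNFRSF10B have such bases and averaged at least 1 TPM over the 11, at 26.8, 19.4, 9.18 and 1.66 TPM, while CASP8, CASP10 and TNFRSF1A have none and did not. A split of this kind ran over the 8608 protein-coding genes at 5 TPM or more in replicate 3, so it is not a result about the members. FAS, at 2.98 TPM, and CASP10, at 2.16 TPM, missed that cut. A mean of at least 1 TPM over the 11 libraries was reached by 71.3% of the 3659 with exon bases opposite another gene and by 18.7% of the 4949 without. Being listed at 0 in all 11 was found for 7.54% and 21.5% of them. Among pathway genes at the same cut, members included, the mean of 1 TPM was reached by 57.1% of 21 with such bases and 13.3% of 30 without. Which strand the values of the 11 libraries describe was not tested, and a value near 0 there is not a measure that the gene was silent.

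**Figure D5:**
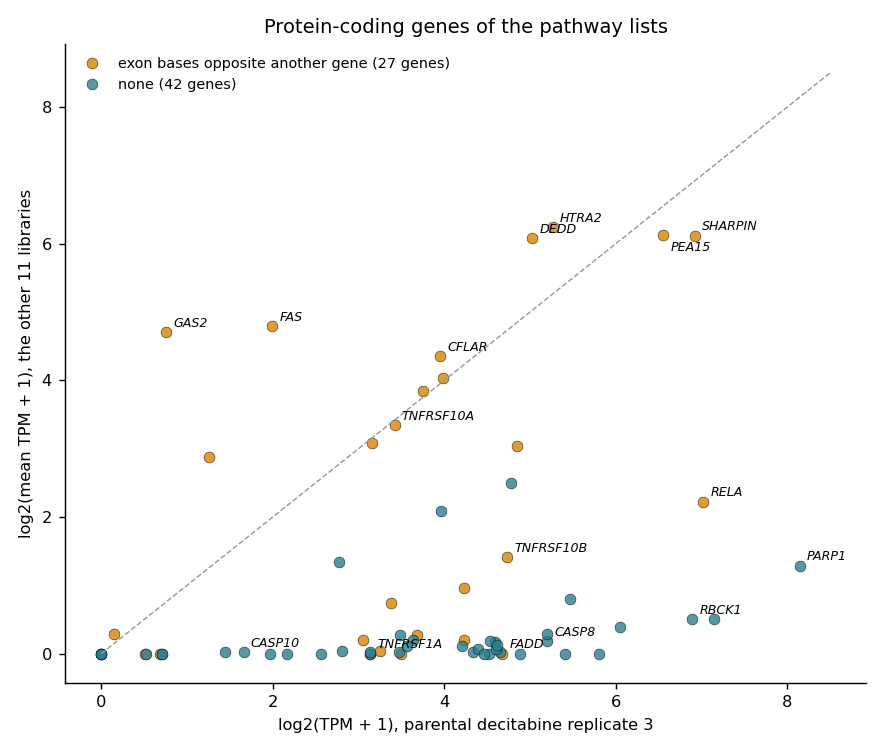
Mean level over the 11 libraries (vertical) against the level in parental decitabine replicate 3 (horizontal), both on log2(TPM + 1), for protein-coding genes of the members and the 5 other pathway lists, coloured by whether they have exon bases opposite another gene; the dashed line marks equal levels. CASP8 and FADD lie far to the right of it at or near 0 on the vertical axis, and FAS lies above it.

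The other genes of the pathway were taken as 5 lists of 62 genes in all, and none of them passed in any of the 5 comparisons. In resistant cells 16 of the 62 were tested, with a median log2 fold change with decitabine of 0.04, against 0.28 for the 6 members and 0.21 for all features; none of the 16 had an unadjusted p under 0.05 by limma, where 19.8% of all features did. In parental cells 18 were tested, with a median of 0.12, against -0.02 for the members, and 1 of them, SHARPIN, had an unadjusted p under 0.05 by limma, where 18.0% of all features did. The lowest limma adjusted p of the 62 genes was 0.27 in resistant cells, 0.277 in parental cells, 0.133 between lines under DMSO, 0.139 between lines under decitabine and 0.401 for the difference of responses. Unadjusted p-values under 0.05 by limma numbered 3 of 16, 4 of 17 and 1 of 16 tested in the last 3 of these, where 19.3%, 12.1% and 10.1% of all features had one.

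The ligands could not be tested, since 0 of 7 reached a mean of 1 TPM. FASLG, the ligand of FAS, was listed at 0 in all 12 libraries, and TNFSF10, the ligand of the TRAIL receptors, at 0 in the 11 and at 4.92 TPM in replicate 3. LTB, lymphotoxin beta, was at 19.2 TPM in replicate 3 and at most 0.25 TPM in the 11. Of 8 other death and decoy receptors 1 was tested, the death receptor TNFRSF25, at 3.49 to 9.503 TPM over the 11 libraries and 1.38 TPM in replicate 3.

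Among 14 adaptors and kinases near the receptors, 3 were tested in resistant cells. The death-effector-domain proteins PEA15 and DEDD were at 17.3 to 110.5 TPM and 38.9 to 88.0 TPM over the 11 libraries, and the adaptor TRAF2 was at 0 to 9.44 TPM. Among 17 ubiquitin and NF-kB regulators of the receptor complex, 5 were tested there. The linear ubiquitin ligase subunits SHARPIN and RNF31 were at 3.02 to 129 TPM and 3.99 to 30.8 TPM. SHARPIN had log2 fold changes with decitabine of 2.39 in resistant and -2.48 in parental cells, opposite in sign as for FAS. The difference was 4.87 (SE 1.78, limma adjusted p 0.401). Its resistant DMSO libraries were spread widely, at 118.5, 6.57 and 3.02 TPM. IKBKG, the regulatory subunit of the NF-kB kinase, was at 0 in 6 of the 11 libraries and reached 79.5 TPM; it has a near-identical pseudogene copy, so its values are uncertain. Of 16 genes downstream of caspase-8, 7 were tested, led by the mitochondrial protease HTRA2 at 9.15 to 159.9 TPM, the inhibitor-of-apoptosis antagonist DIABLO at 0 to 182 TPM and the caspase substrate GAS2 at 18.4 to 30.8 TPM.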

How the data were processed

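The 12 libraries fall into 4 groups of 3. Per the labels' protocols they were stranded libraries of polyadenylated RNA. The submitters' processing notes name the build hg38 and the tools StringTie, HISAT2 and DESeq2; neither versions nor annotation nor strand setting is stated. The deposited values are decimals whose header names no unit. They were taken as TPM that the authors had scaled per library, because every library adds up to 1000000. Both tables list the same 60656 features, and levels set across the 2 tables rest on that scaling alone. TPM keep no depth, so no counting interval is given. Only names that occur once (59490) were used; 1166 features with repeated names were left out. Names were used in place of the identifiers beside them in the parental table, of which 51.4% match the name. The identifiers beside TNFRSF10A, TNFRSF10B and TNFRSF1A there belong to TNFAIP8L3, TNFRSF10A-AS1 and TNFRSF19. Parental columns were matched to samples by title and resistant columns to groups.

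Fits used limma 3.58.1 with a trend (R 4.3.3) and log2(TPM + 1) values. Features entered a fit where they averaged 1 TPM or more across its libraries, and parental decitabine replicate 3 was left out. A call is a Benjamini-Hochberg adjusted p under 0.05 over all features tested. The log2 fold changes understate changes of low features. The difference of responses was fitted in 1 model of 4 group means. Positions, strands and exon overlap come from GENCODE 29 (GRCh38), and start windows from RefSeq (GRCh38.p14). The alternatives were a filter at 5 TPM or none, a pseudocount of 0.1, quantile and median-ratio scaling, the set-apart replicate included, a replicate block and the removal of each library. The text names the 10 members, opposite features that reach 1 TPM and up to 3 genes of highest mean in each pathway list that were tested. LTB, TNFSF10 and FASLG, and the fold changes of SHARPIN, were chosen after their values were seen. Also named are the 5 features most like FAS, with values for SOX4, EP300 and FBXL14, chosen after they were seen. The members and lists were chosen with earlier results of these data known.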

Additional observations from a re-analysis of the deposited data

Results flagged for a closer look

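The decitabine response of FAS differed between the lines, by 4.87 on the log2 scale (limma adjusted p 0.0019): all 3 resistant decitabine libraries lay above, and both parental decitabine libraries below, the DMSO libraries of their line.

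Parental decitabine replicate 3, which the comparisons leave out, listed 5 of the 10 members above all 6 DMSO libraries, as it did 30.3% of all 59490 names and 78.2% of the 23062 names above 0 in it; the separation is library-wide and not a result about the members. CASP8 was at 35.7 TPM, TNFRSF10B at 25.7 TPM, FADD at 24.6 TPM, TNFRSF1A at 7.82 TPM and CASP10 at 2.16 TPM there. Groups of 3 libraries are too small for a check of single outlying libraries.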

How the results depend on the processing

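FAS passed with decitabine in resistant cells under every alternative (2.60 to 2.83 outside library removals, limma adjusted p 0.0124 to 0.0246; removals 2.56 to 2.97) except without resistant decitabine a (2.75, adjusted p 0.0518). In parental cells FAS passed under none (limma adjusted p 0.0508 to 0.594). Its difference of responses passed throughout (removals 4.58 to 5.16) but for the inclusion of parental decitabine replicate 3 (4.60, adjusted p 0.167). Between lines under decitabine it was lost with that replicate (4.80, adjusted p 0.44) and under each removal (4.78 to 5.36); under DMSO removals gave -0.038 to 0.37. No other member or ACTA2 passed in any of 351 alternative values (lowest limma adjusted p 0.0627).

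Counts of features called by limma moved by over 1.5 times as follows. In resistant cells, from 308, they were 73 with no filter, 194 with a mean of at least 5 TPM, 196 with quantile scaling and 90 to 197 under removals. In parental cells, from 151, they were 35 with no filter, 0 with replicate 3 (262 at an unadjusted p under 0.05) and 14 to 264 under removals. Between lines under DMSO, from 217, they were 68 with no filter and 58 to 191 under removals; under decitabine, from 75, they were 21, 0 with replicate 3 (285 at an unadjusted p under 0.05) and 0 to 17 under removals, with 0 without parental decitabine 2 (1060 at an unadjusted p under 0.05). For the difference of responses, from 31, they were 7 with no filter, 1 with replicate 3 and 12 to 47 under removals. Where a removal leaves 1 library in a group, that library is assumed to vary like the others.

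Scaling moved the split of higher and lower calls: 243 and 65 in resistant cells became 131 and 65 with quantile and 220 and 121 with median-ratio scaling, 112 and 39 in parental cells became 75 and 47 and 104 and 85, and 134 and 83 between lines under DMSO became 86 and 98 and 86 and 105. The median of all features moved to -0.06 in resistant and -0.02 in parental cells with quantile scaling, each against 0.21.

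Whether the parental replicate numbers pair the samples could not be decided. Correlations of deviations were 0.010, 0.011 and 0.037 for the 3 numbers, but they include decitabine replicate 3, which stands apart. Without it, 2 decitabine libraries remain, and their deviations mirror each other by construction. Resistant columns were matched to groups only. With a replicate block in parental cells FAS was at -2.01 (limma adjusted p 0.389), CFLAR at 0.17 and TNFRSF10A at 0.0083, and 0 features were called (978 at an unadjusted p under 0.05).

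Signs of members that did not pass also turned. With quantile scaling TNFRSF10A was at -0.13 and TNFRSF10B at -0.21 for decitabine in resistant cells and TNFRSF10A at -0.016 between lines under decitabine; with median-ratio scaling AP000879.1 was at -0.026 in parental cells. With replicate 3, AP000879.1 was at -2.57, IMPDH1P10 at -1.23 and TNFRSF10A at 0.022 in parental cells, AP000879.1 at 2.72, IMPDH1P10 at 1.69 and TNFRSF10B at -0.68 between lines under decitabine, and AP000879.1 at 2.34 for the difference of responses. Under removals CFLAR ranged over -0.48 to 0.37 for decitabine in resistant cells, -0.47 to 0.39 for decitabine in parental cells, -0.44 to 0.22 between lines under DMSO, -0.65 to 0.26 between lines under decitabine and -0.44 to 0.47 for the difference of responses; TNFRSF10A over -0.068 to 0.35 for decitabine in resistant cells, -0.22 to 0.19 for decitabine in parental cells, -0.24 to 0.17 between lines under DMSO, -0.086 to 0.33 between lines under decitabine and -0.050 to 0.39 for the difference of responses; IMPDH1P10 over -0.20 to 0.15 between lines under decitabine and -0.036 to 0.35 for the difference of responses; and AP000879.1 over -0.11 to 0.097 between lines under decitabine. The cause was not tested, and depth is unknown.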
